A study of Mus musculus with 4 samples.

Results

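The genes described here carry proteins from the endoplasmic reticulum (ER) to the Golgi and back. They comprise the COPII and COPI coats, the Arf GTPases, the receptors that load and retrieve cargo, the SNAREs that fuse the vesicles and 4 golgins. They were picked by gene symbol, by a rule that uses no measured value but was written with earlier results of these data known, and 58 of 33641 gene symbols in the deposited tables matched. Of these, 56 had a mean of at least 1 TPM (a transcript abundance scaled by length, with the same total in each library) over all libraries and were tested. The other 2 were Tmed11, listed at 0 in all libraries, and Tmed6, with 0.0896 and 0 TPM with TGFbeta and 0.0952 and 0.538 TPM with vehicle.

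RNA was sequenced from primary cardiac fibroblasts of wild-type C57BL/6J mice aged 12 weeks. In 2 libraries the cells had received 10 ng/ml TGFbeta, which drives fibroblasts to become matrix-secreting myofibroblasts, and in 2 libraries vehicle control. All 4 cultures also took up 4-thiouridine, a crosslinkable uridine analogue, and were exposed to ultraviolet light. The study design describes RNA recovered with HuR, an RNA-binding protein, whereas the sample labels describe total RNA, and no input library was analysed here. The values are therefore given only as levels in the sequenced libraries. If the RNA was recovered with HuR, a difference in abundance and a difference in recovery cannot be told apart. Whether the replicates came from different cultures or animals is not stated, so the p-values reflect the spread of these samples, which may be technical.

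COPII is the coat that buds vesicles from the ER. The GTPase Sar1 recruits the cargo-binding inner layer of Sec23 and Sec24, and the outer cage of Sec13 and Sec31 closes over it. COPI, recruited by Arf GTPases, forms vesicles that return escaped ER proteins and receptors. In fibroblasts this route carries procollagen, which is larger than a standard COPII vesicle, and its load grows when matrix secretion grows.

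Read depth was unknown, because the files hold TPM alone, so no counting interval is given. Between 20945 and 21671 genes per library lay above 0. Across the 15815 tested genes (genes being no independent replicates) log2(TPM + 1) had a Pearson r of 0.976 within TGFbeta and 0.980 within vehicle, against 0.956 to 0.965 between treatments. The 10 fibroblast markers were all present, with 55.5 TPM as the lowest value, and 2 of them, Pdgfra and Tcf21, were lower with TGFbeta. Of the markers of other cell types, summed levels were 18.2 and 18.2 TPM with TGFbeta and 21.2 and 27.7 TPM with vehicle for 6 of macrophages and leukocytes. They were 34.2 and 35.4 TPM with TGFbeta and 38.4 and 40.3 TPM with vehicle for 5 of endothelium, and 52.1 and 54.6 TPM with TGFbeta and 64.8 and 100.9 TPM with vehicle for 6 of cardiomyocytes. For 4 of smooth muscle and pericytes they were 29.3 and 35.3 TPM with TGFbeta and 19.4 and 17.4 TPM with vehicle, and for 3 of epicardium 9.75 and 9.50 TPM with TGFbeta and 11.1 and 13.8 TPM with vehicle. Among the cardiomyocyte markers only Tnnt2 and Actn2 reached a mean of 1 TPM. Tnnt2 had 35.2 and 34.6 TPM with TGFbeta and 47.0 and 81.4 TPM with vehicle, and Actn2 overlapped between treatments. The pericyte gene Rgs5 had 1.95 and 13.5 TPM with TGFbeta and 2.26 and 2.47 TPM with vehicle. Of these 24 markers of other cells, 1 was listed at 0 in a library, the cardiomyocyte gene Myh6, and their part in the results below was not tested. In such bulk samples fewer cells of a type and less RNA per cell cannot be told apart.

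The comparison asked whether RNA levels of the transport machinery differed between TGFbeta and vehicle. The test, limma on log2(TPM + 1) with Benjamini-Hochberg adjustment over all tested genes, called 2 of 56 members higher, Kdelr2 and Surf4, and 0 lower. These are 3.57% of the members, against 1.54% of all tested genes called higher and 4.38% called lower. At an unadjusted limma p under 0.05 there were 9 members higher (16.1%) and 1 lower (1.79%), against 5.98% and 18.5% of all tested genes. These counts depended on scaling of the libraries. After median scaling there were 22 members higher and 0 lower, among 3490 such genes of 15815 tested. After quantile normalization there were 16 higher and 1 lower, among 3502 such genes. Both TGFbeta libraries lay above both vehicle libraries for 24 members (42.9%), against 15.5% of all tested genes, and below both for 8 (14.3%), against 39.8%.

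The members' log2 changes (TGFbeta mean minus vehicle mean of log2(TPM + 1)) ran from -0.48 to 0.70 with a median of 0.14. Over all tested genes the median was -0.13, and 44 of 56 members lay above it. The level of that median depended on scaling: after median scaling of the libraries it was 0.03 and that of the members 0.30, while the calls over all genes were 421 higher and 401 lower, in place of 244 and 692. Without vehicle 2 the members' median was 0.07 and 33 of 56 log2 changes were above 0, in place of 40. The 100 most abundant genes took 29.8% and 27.0% of TPM with TGFbeta, against 23.3% and 24.4% with vehicle, and their part in these shifts was not tested. Together the members took 0.675% and 0.692% of all TPM in the TGFbeta libraries, against 0.612% and 0.586% in the vehicle libraries.

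**Figure D1:**
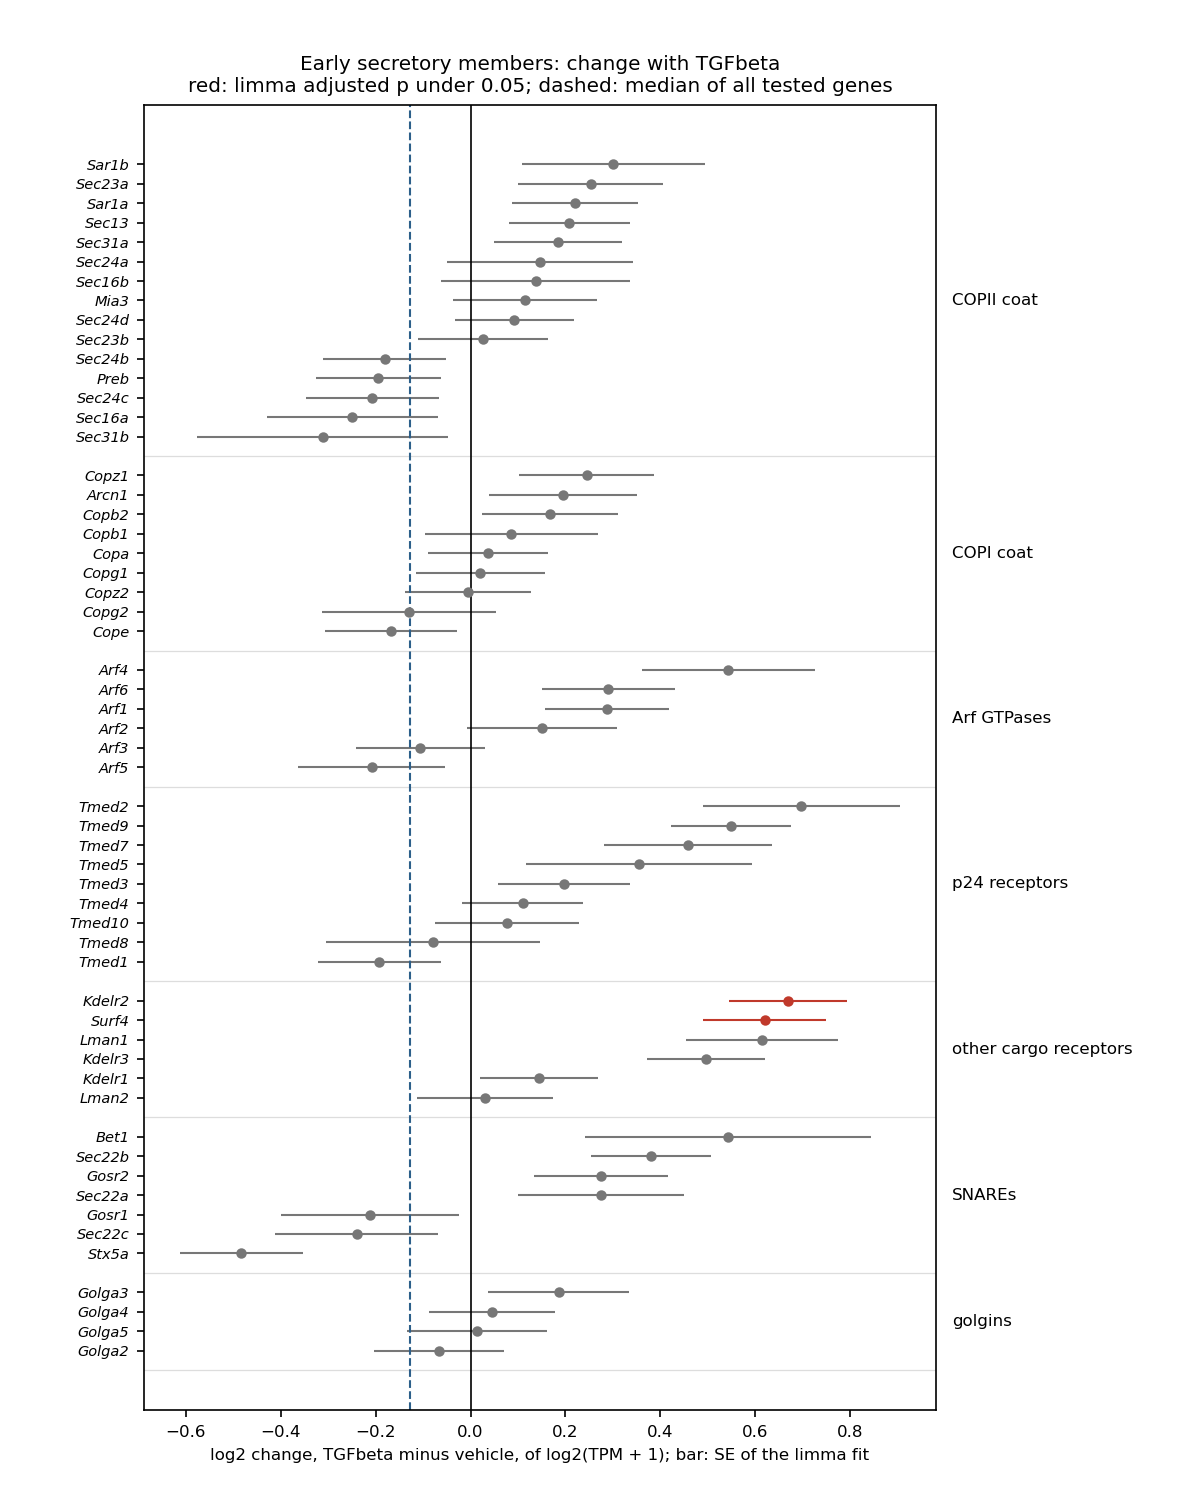
Log2 change (TGFbeta minus vehicle) of each of the 56 tested members, grouped by role, with the SE of the limma fit as bars. Kdelr2 and Surf4, in red, passed the test; the dashed line is the median of all tested genes, -0.13.

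By role, the 6 cargo and retrieval receptors outside the p24 family summed to 1091 and 1084 TPM with TGFbeta and to 799 and 781 TPM with vehicle, a ratio of means of 1.38. The 11 p24 receptors summed to 1025 and 1207 TPM with TGFbeta, against 902 and 798 TPM with vehicle (ratio 1.31), and the 6 Arf GTPases to 1005 and 1039.8 TPM with TGFbeta, against 911 and 834 TPM with vehicle (ratio 1.17). In these groups, and in the COPII and golgin groups given below, the libraries of the treatments did not overlap. A sum weighs its abundant genes most. Within the p24 sums, Tmed2 averaged 344 TPM with TGFbeta and 210 TPM with vehicle. Tmed9 averaged 259 TPM with TGFbeta and 177 TPM with vehicle, while Tmed1, Tmed6 and Tmed8 had lower means with TGFbeta. The 15 COPII genes summed to 1791 and 1711 TPM with TGFbeta and to 1659 and 1642 TPM with vehicle (ratio 1.06). For the 9 COPI genes the sums were 1218 and 1265 TPM with TGFbeta and 1222 and 1191 TPM with vehicle, a ratio of 1.03 with overlapping libraries. The 7 SNAREs, at 337 and 341 TPM with TGFbeta and 353 and 335 TPM with vehicle, overlapped too, and the 4 golgins had 281 and 277 TPM with TGFbeta, against 274 and 275 TPM with vehicle.

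**Figure D2:**
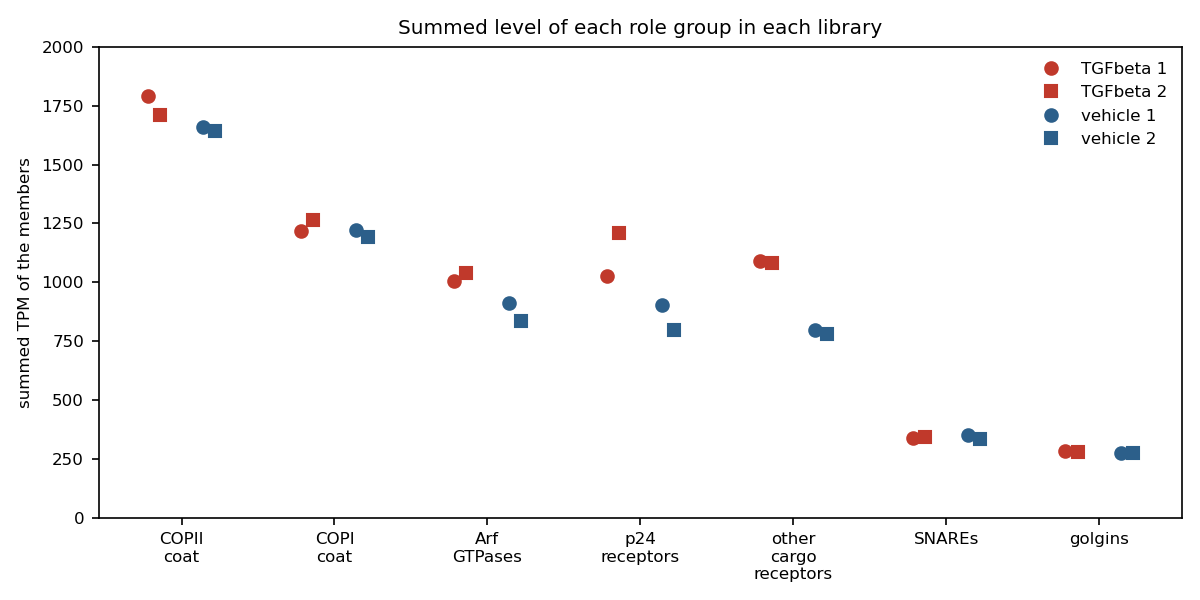
Summed TPM of the members of each role group in each of the 4 libraries; red marks are TGFbeta, blue marks vehicle, circles replicate 1 and squares replicate 2. The separation is widest for the 6 other cargo receptors (1091 and 1084 TPM with TGFbeta, 799 and 781 TPM with vehicle), and the COPI sums of the treatments overlap.

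KDEL receptors bind soluble ER chaperones that have reached the Golgi, by their C-terminal KDEL sequence, and hand them to COPI vesicles for return. Mouse has the paralogues Kdelr1, Kdelr2 and Kdelr3. Kdelr2 (ENSMUSG00000079111.3, GRCm38 chromosome 5, 143403838 to 143421901, plus strand) had 204 and 201 TPM in the TGFbeta libraries, against 126 and 128 TPM in the vehicle libraries. The gap between treatments was far wider than that within either. Kdelr2 averaged 202 ± 1.97 TPM with TGFbeta and 127 ± 1.43 TPM with vehicle (SD, n = 2 each), a 1.59-fold rise with a log2 change of 0.67 (SE 0.12, limma adjusted p = 0.0382). Kdelr3 had 145 and 149.7 TPM with TGFbeta and 103 and 105 TPM with vehicle. Its libraries did not overlap either, but Kdelr3 missed the threshold (log2 change 0.50, SE 0.12, limma adjusted p = 0.0741). Kdelr1, the most abundant of the family in every library, had 231 and 231 TPM with TGFbeta and 206 and 212 TPM with vehicle (log2 change 0.14, SE 0.12, limma adjusted p = 0.530).

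Within the family the shares of the paralogues differed between treatments, without overlap between libraries. Kdelr2 supplied 35.1% and 34.5% of KDEL receptor TPM with TGFbeta, against 29.0% and 28.7% with vehicle. Kdelr3 supplied 25.0% and 25.7% with TGFbeta and 23.7% and 23.6% with vehicle. The share of Kdelr1 was 39.9% and 39.7% with TGFbeta, against 47.3% and 47.7% with vehicle. TPM is scaled by length, so these shares compare levels between genes. They are a description without a test.

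**Figure D3:**
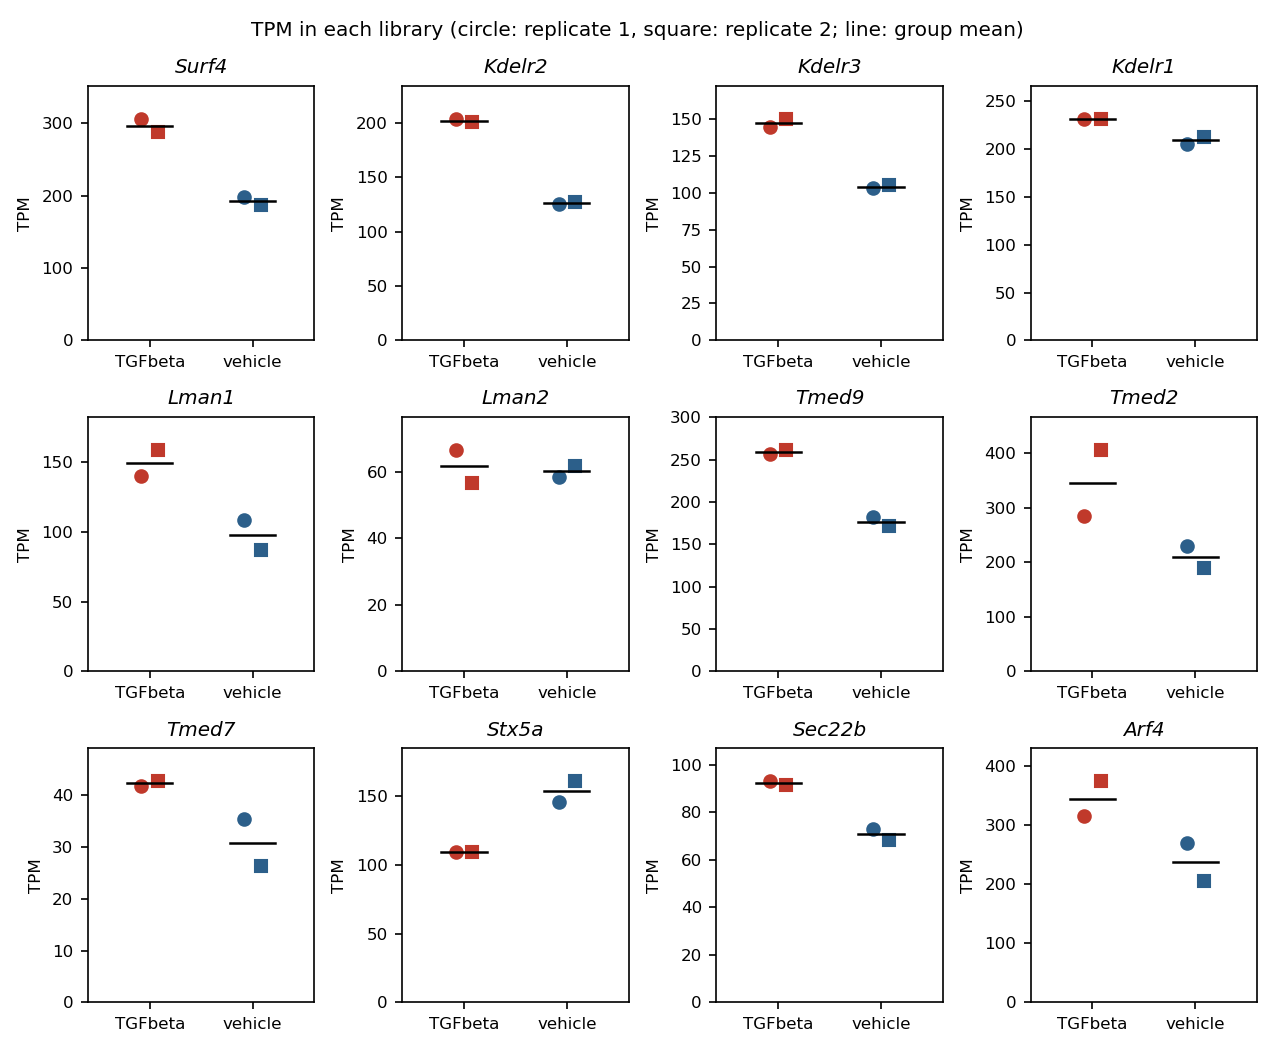
TPM of 12 members in each library, with a line at each group mean; TGFbeta is on the left of each panel and vehicle on the right, circles are replicate 1 and squares replicate 2, and each axis starts at 0. Surf4 and Kdelr2 passed the limma test, Lman2 overlaps between treatments, and Stx5a is lower in both TGFbeta libraries.

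Surf4 encodes a membrane receptor that speeds the export of soluble secreted proteins from the ER (ENSMUSG00000014867.9, GRCm38 chromosome 2, 26920040 to 26933928, minus strand). Its level was 306 and 287 TPM in the TGFbeta libraries, against 198 and 187 TPM in the vehicle libraries. Both TGFbeta values exceeded both vehicle values by more than the spread within a treatment. Surf4 averaged 296 ± 13.0 TPM with TGFbeta and 193 ± 7.97 TPM with vehicle (SD, n = 2 each), and rose 1.54-fold with a log2 change of 0.62 (SE 0.13, limma adjusted p = 0.0492). In the annotation, 144 of 3281 exon bases of Surf4 overlap Surf2 on the opposite strand, and it is not stated whether strand was used; Surf2 had 31.4 and 39.3 TPM with TGFbeta and 33.1 and 39.2 TPM with vehicle. Lman1 encodes a lectin, known in human for the export of clotting factors together with the partner protein MCFD2. It had 139.6 and 158 TPM with TGFbeta and 108 and 86.6 TPM with vehicle. These did not overlap, yet the spread within each treatment was wide and Lman1 did not pass (log2 change 0.61, SE 0.16, limma adjusted p = 0.0826). Lman2, a related lectin gene, had 66.5 and 56.8 TPM with TGFbeta and 58.6 and 61.9 TPM with vehicle, and the treatments overlapped.

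The calls of Kdelr2 and Surf4 were lost when any 1 library was left out, when every gene above 0 was tested and without an intensity trend. Both were also lost with replicate number as a further term of the fit (limma adjusted p = 0.0859 for Kdelr2 and 0.102 for Surf4). Their log2 changes stayed between 0.65 and 0.82 for Kdelr2 and between 0.57 and 0.77 for Surf4 in all settings run, and with 0.1 as pseudocount Surf4 too was not called (limma adjusted p = 0.0524).

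Promoters were searched for response elements of the ER stress pathway, since XBP1, ATF6 and the CREB3 family bind such elements. RefSeq promoters (GRCm38.p6, 250 bases before to 50 after a start) were at hand for 50 of 58 members. The 8 without an entry were Arcn1, Arf6, Golga4, Kdelr2, Lman1, Tmed11, Tmed2 and Tmed7. The searched elements were CCAAT and CCACG with 9 bases between (ERSE), ATTGG and CCACG with 1 base between (ERSE-II), TGACGTGG (the core of the UPRE) and TGACGTCA (CRE), on both strands. The reverse of the UPRE core begins with CCACG, which also ends ERSE and ERSE-II, and UPRE core and CRE both begin with TGACGT. The UPRE core was present in 8 of 50 members (16.0%), against 105 of 10705 tested genes with a promoter (0.981%) and 0.714% of all 27025 genes with one. CRE was present in 2 of 50, Cope and Gosr2 (4.0%), against 3.39% of tested genes. ERSE and ERSE-II were present in 0 of 50, against 0.168% and 0.0747%. A match is a stretch of letters and not a shown binding site.

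The UPRE core matches are given with 10 bases on either side, 5′ to 3′ on the strand of the gene, the match in capitals, because the same 8 letters recur in coat, receptor and SNARE genes. Capitals reading CCACGTCA are the element on the opposite strand.
Sec24d, chr3:123267460-123267487, plus strand: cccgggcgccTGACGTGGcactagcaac
Sec23a, chr12:59011994-59012021, minus strand: tcctccccttTGACGTGGcagaggcggc
Sec16b, chr1:157506742-157506769, plus strand: tctgtgtggcTGACGTGGcacggcagtt
Copb1, chr7:114254691-114254718, minus strand: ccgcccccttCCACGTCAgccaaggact
Copb2, chr9:98563714-98563741, plus strand: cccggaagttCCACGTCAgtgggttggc
Arf1, chr11:59228229-59228256, minus strand: cggcaggcgcTGACGTGGctgccgtcag
Kdelr3, chr15:79516368-79516395, plus strand: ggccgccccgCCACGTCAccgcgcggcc
Stx5a, chr19:8741423-8741450, plus strand: ggcgcagcagCCACGTCAccgagttagg
In Sec24d the match lies 26 to 19 bases before the start, in Kdelr3 30 to 23 and in Copb1 28 to 21 bases before it, and in Sec23a 6 to 13 bases after it. Stx5a holds another match 39 to 46 bases after its start. Of these 8 genes, 0 passed the test (limma). Their log2 changes were 0.09 for Sec24d, 0.25 for Sec23a, 0.14 for Sec16b, 0.09 for Copb1, 0.17 for Copb2, 0.29 for Arf1, 0.50 for Kdelr3 and -0.48 for Stx5a. The signs of Sec16b and Copb1 turned when a library was left out.

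The whole promoter windows of Surf4, which passed the test, and of Kdelr3, which holds the UPRE core in capitals, are shown side by side (chr2:26933462-26933761, minus strand, and chr15:79516158-79516457, plus strand, GRCm38.p6).
Surf4: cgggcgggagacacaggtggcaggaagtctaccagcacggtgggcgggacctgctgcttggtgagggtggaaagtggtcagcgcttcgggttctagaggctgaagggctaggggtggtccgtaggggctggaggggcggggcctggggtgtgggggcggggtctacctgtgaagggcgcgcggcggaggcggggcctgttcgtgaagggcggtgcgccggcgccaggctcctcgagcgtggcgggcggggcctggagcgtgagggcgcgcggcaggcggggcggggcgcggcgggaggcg
Kdelr3: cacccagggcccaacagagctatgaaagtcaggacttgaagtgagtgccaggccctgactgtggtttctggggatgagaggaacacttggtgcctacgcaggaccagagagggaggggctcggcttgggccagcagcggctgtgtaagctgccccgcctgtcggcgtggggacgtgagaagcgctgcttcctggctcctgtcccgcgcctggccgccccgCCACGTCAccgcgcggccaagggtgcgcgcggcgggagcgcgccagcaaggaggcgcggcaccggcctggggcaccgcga
None of the 4 elements was found in the Surf4 window. That window lies wholly inside the annotated gene, whose 5′ end is at 26933928, so the sequence before that end was not searched. Both windows are rich in G and C (75.0% for Surf4 and 69.7% for Kdelr3).

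The p24 proteins, encoded by the Tmed genes, are small transmembrane receptors that cycle between ER and Golgi in both coats and bind GPI-anchored and other cargo as mixed complexes. Of 9 tested, 0 passed the limma test in either direction (3 at an unadjusted p under 0.05, all higher). Tmed2 had the largest change of the tested members and a wide spread in TGFbeta libraries, with 284 and 405 TPM, against 229.8 and 189.7 TPM in vehicle libraries (log2 change 0.70, SE 0.21, limma adjusted p = 0.109). Its change ran from 0.44 to 0.95 over the settings. Tmed9 was tighter, at 257 and 261 TPM with TGFbeta and 182 and 171 TPM with vehicle (log2 change 0.55, SE 0.13, limma adjusted p = 0.0614). Tmed7 had 41.8 and 42.6 TPM with TGFbeta and 35.3 and 26.2 TPM with vehicle (log2 change 0.46, limma adjusted p = 0.184). For each of these genes the treatments did not overlap. Tmed10, the partner that p24 complexes need for stability, had 101 and 122 TPM with TGFbeta and 111 and 99.0 TPM with vehicle, which overlapped. Tmed1, a family member known to bind an interleukin receptor, stood lower, at 47.7 and 49.7 TPM with TGFbeta and 55.2 and 56.2 TPM with vehicle (log2 change -0.19, limma adjusted p = 0.418). Tmed3, Tmed4, Tmed5 and Tmed8 had log2 changes of 0.20, 0.11, 0.35 and -0.08.

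Of 15 COPII genes, 0 passed the limma test in either direction. Without scaling of the libraries, 0 had an unadjusted limma p under 0.05, and their log2 changes ran from -0.31 to 0.30 with a median of 0.12. After median scaling the log2 changes were 0.46 for Sar1b, 0.41 for Sec23a, 0.34 for Sec31a and -0.16 for Sec31b. Mean levels of the 15 genes spanned 4.81 to 364 TPM. The most abundant was Sec31a, which encodes the rod of the outer cage, with 405 and 370.4 TPM with TGFbeta and 330.0 and 351 TPM with vehicle (log2 change 0.18, SE 0.13, limma adjusted p = 0.456). Its paralogue Sec31b, at 4.96 and 3.40 TPM with TGFbeta and 4.33 and 6.57 TPM with vehicle, supplied 1.06% of Sec31 TPM with TGFbeta and 1.57% with vehicle. Sar1b, the paralogue of the coat GTPase known from human chylomicron export, had 37.3 and 51.9 TPM with TGFbeta and 37.8 and 33.4 TPM with vehicle (log2 change 0.30, SE 0.19, limma adjusted p = 0.397). Sar1a, the main Sar1 gene here, had 209 and 210.4 TPM with TGFbeta and 190.2 and 170.0 TPM with vehicle. Preb, which encodes the exchange factor that activates Sar1, lay the other way, at 135 and 138 TPM with TGFbeta and 148 and 166 TPM with vehicle (log2 change -0.19, limma adjusted p = 0.424).

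Sec23a, whose loss in human impairs collagen export and skull formation, had 75.8 and 63.0 TPM with TGFbeta and 60.9 and 54.9 TPM with vehicle. The treatments did not overlap, but the TGFbeta libraries were spread and Sec23a did not pass (log2 change 0.25, SE 0.15, limma adjusted p = 0.367). Sec23b, its paralogue, had 46.5 and 45.4 TPM with TGFbeta and 47.7 and 42.6 TPM with vehicle. Of the Sec24 cargo adaptors, Sec24d was the most abundant, with 149 and 140.3 TPM with TGFbeta and 136 and 135 TPM with vehicle. Sec24b had 108 and 99.0 TPM with TGFbeta and 114 and 120.4 TPM with vehicle, and Sec24c 53.3 and 49.4 TPM with TGFbeta and 55.8 and 63.2 TPM with vehicle. The share of Sec24d in Sec24 TPM was therefore 43.9% and 45.2% with TGFbeta and 41.1% and 39.8% with vehicle, without any Sec24 gene passing the test. Mia3, which encodes TANGO1, the ER exit site protein that fits procollagen into COPII carriers, had 214 and 203 TPM with TGFbeta and 213 and 173 TPM with vehicle. These overlapped (log2 change 0.12, SE 0.15, limma adjusted p = 0.695; the sign turned without vehicle 2). Sec16a, which organises ER exit sites, had 84.0 and 61.6 TPM with TGFbeta and 82.0 and 89.5 TPM with vehicle.

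**Figure D4:**
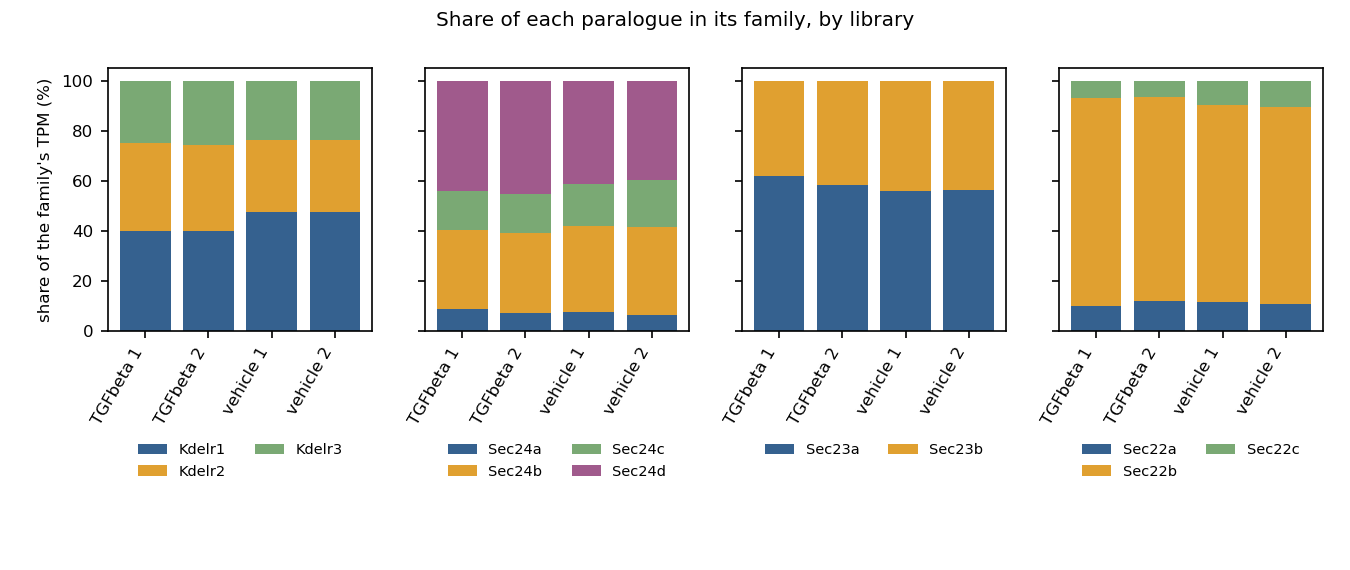
Share of each paralogue in the summed TPM of its family in each library, for the KDEL receptors, Sec24, Sec23 and Sec22, as stacked bars that add to 100%. Kdelr2 takes 35.1% and 34.5% with TGFbeta and 29.0% and 28.7% with vehicle; Sec24d takes 43.9% and 45.2% with TGFbeta and 41.1% and 39.8% with vehicle.

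Without scaling of the libraries, COPI genes lay close to their vehicle levels. Of 9, 0 passed the limma test and 0 had an unadjusted p under 0.05, and their log2 changes ran from -0.17 to 0.24 with a median of 0.04. After median scaling the log2 changes were 0.40 for Copz1, 0.35 for Arcn1, 0.19 for Copa and -0.01 for Cope. Copa, the most abundant, which encodes the large outer subunit that binds retrieval signals, had 279.8 and 276 TPM with TGFbeta and 278 and 264 TPM with vehicle (log2 change 0.04, limma adjusted p = 0.893; the sign turned without vehicle 2). Copz1, a small subunit gene, had 87.5 and 103 TPM with TGFbeta and 82.3 and 77.8 TPM with vehicle (log2 change 0.24, limma adjusted p = 0.353). Copz2, its paralogue, held the larger part of the pair's TPM in all libraries, 65.0% and 60.6% with TGFbeta and 64.8% and 68.7% with vehicle. Arcn1, the delta subunit gene, had 107 and 119 TPM with TGFbeta and 109 and 88.7 TPM with vehicle. Cope, the epsilon subunit gene, was at 186 and 189 TPM with TGFbeta and 195 and 228 TPM with vehicle (log2 change -0.17, limma adjusted p = 0.510).

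Of the 6 Arf genes, 0 passed the limma test and 1 had an unadjusted p under 0.05, Arf4, which acts with Arf1 in early Golgi transport. Arf4 had 316 and 375 TPM with TGFbeta and 270.0 and 206 TPM with vehicle (log2 change 0.54, SE 0.18, limma adjusted p = 0.139). The treatments did not overlap, with a wide spread in both. Arf1, the main recruiter of COPI and the Arf gene with the highest mean over all libraries, had 326 and 349.8 TPM with TGFbeta and 283 and 269.6 TPM with vehicle (log2 change 0.29, SE 0.13, limma adjusted p = 0.244). Arf6, which acts at the plasma membrane, had 47.6 and 47.3 TPM with TGFbeta and 41.3 and 36.2 TPM with vehicle. Arf5 lay the other way, at 206 and 166 TPM with TGFbeta and 207 and 221 TPM with vehicle, and Arf2 and Arf3 overlapped between treatments.

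SNAREs, the proteins that drive fusion of ER-derived vesicles, went in both directions, and 0 of 7 passed the limma test (2 at an unadjusted p under 0.05, 1 each way). Stx5a, the syntaxin of the early Golgi, had the lowest change of all members. It had 109.6 and 109 TPM with TGFbeta, against 146 and 161 TPM with vehicle (log2 change -0.48, SE 0.13, limma adjusted p = 0.0859). Its partner Sec22b lay higher, at 93.0 and 91.4 TPM with TGFbeta and 72.8 and 68.5 TPM with vehicle (log2 change 0.38, SE 0.13, limma adjusted p = 0.138). Neither pair of treatments overlapped. Bet1, another partner in the same complex, had 26.1 and 34.7 TPM with TGFbeta and 27.7 and 14.9 TPM with vehicle, and its log2 change of 0.54 (SE 0.30, limma adjusted p = 0.332) ran from 0.12 to 0.97 over the settings. Gosr2 had 65.8 and 66.4 TPM with TGFbeta and 58.8 and 50.4 TPM with vehicle, while Gosr1, at 23.0 and 19.4 TPM with TGFbeta and 28.0 and 21.6 TPM with vehicle, overlapped.

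The 4 golgins, coiled-coil tethers of the Golgi surface, lay close to their vehicle levels without scaling of the libraries. Their log2 changes ran from -0.07 to 0.19, with 0 calls by limma and 0 at an unadjusted limma p under 0.05. After median scaling the log2 changes were 0.09 for Golga2, 0.34 for Golga3 and 0.20 for Golga4. Golga2, which encodes GM130 and was the most abundant, had 115 and 103 TPM with TGFbeta and 109 and 119 TPM with vehicle. The sign of Golga2 turned after median scaling, after quantile normalization and without TGFbeta 2. Golga3 had 55.7 and 52.4 TPM with TGFbeta and 51.7 and 43.5 TPM with vehicle, and Golga4 81.9 and 90.8 TPM with TGFbeta and 81.9 and 85.1 TPM with vehicle.

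A further list of 75 measured genes of the same route was set beside the members: regulators, ER export helpers, Rab and Arf regulators, SNAREs and tethers. Of these 75, 2 passed the test, both higher and both genes of transcription factors (limma adjusted p under 0.05). They are 2.67% of the list, against 1.54% of all tested genes called higher and 4.38% called lower. At an unadjusted limma p under 0.05 there were 9 higher (12.0%) and 10 lower (13.3%), against 5.98% and 18.5% of all tested genes. Creb3l2, which encodes a factor that in mouse cartilage activates Sec23a (GRCm38 chromosome 6, 37327255 to 37442146, minus strand), had 126 and 114 TPM with TGFbeta and 57.1 and 54.8 TPM with vehicle. Creb3l2 averaged 119.8 ± 8.42 TPM with TGFbeta and 56.0 ± 1.62 TPM with vehicle (SD, n = 2 each) and rose 2.14-fold (log2 change 1.08, SE 0.13, limma adjusted p = 0.0142). Creb3l1, which encodes a related factor that in mouse bone activates Col1a1 (chromosome 2, 91982328 to 92024502, minus strand), had 150.0 and 123 TPM with TGFbeta and 82.7 and 68.8 TPM with vehicle. Creb3l1 rose 1.80-fold (log2 change 0.84, SE 0.16, limma adjusted p = 0.0435). In both genes the treatments did not overlap. The Creb3l1 call was lost without any 1 of the 4 libraries (limma adjusted p = 0.0804 to 0.255), and that of Creb3l2 without TGFbeta 1 (0.0650), vehicle 1 (0.118) or vehicle 2 (0.150).

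The other CREB3 family genes on that list, Creb3, Creb3l3 and Creb3l4, did not pass (limma adjusted p = 0.397, 0.393 and 0.187). Their log2 changes were 0.23, 0.43 and -0.53. Creb3l4 had 2.76 and 3.09 TPM with TGFbeta and 4.20 and 5.14 TPM with vehicle, without overlap. The sensors and factors of the unfolded protein response outside this family did not pass either. Xbp1, a main activator of ER expansion, had 154 and 154 TPM with TGFbeta and 129 and 124 TPM with vehicle (log2 change 0.28, limma adjusted p = 0.235). Atf6 had 22.3 and 22.8 TPM with TGFbeta and 18.1 and 15.2 TPM with vehicle (log2 change 0.42, limma adjusted p = 0.177). Atf4 had 453 and 529 TPM with TGFbeta and 384 and 357 TPM with vehicle (log2 change 0.40, limma adjusted p = 0.164). For Xbp1, Atf6 and Atf4 the treatments did not overlap. The unadjusted limma p was 0.0380 for Atf6 and 0.0329 for Atf4. Ern1, the gene of the sensor IRE1, had 20.0 and 15.4 TPM with TGFbeta and 18.3 and 17.0 TPM with vehicle, which overlapped.

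Of 19 ER export helpers, 14 had a log2 change above 0 (73.7%, against 35.2% of all tested genes). Their median was 0.19, and 0 passed the limma test. The largest absolute change was a lower level, that of Ergic3. It had 273 and 217 TPM with TGFbeta and 316 and 416 TPM with vehicle (log2 change -0.57, limma adjusted p = 0.140). Ergic2 was lower too (log2 change -0.42, limma adjusted p = 0.151), and neither gene overlapped between treatments. Serpinh1, the collagen chaperone gene whose product leaves and returns to the ER by KDEL receptors, had 3434 and 3324 TPM with TGFbeta and 2699 and 2046 TPM with vehicle (log2 change 0.52, limma adjusted p = 0.176). Mia2, a relative and partner of Mia3 at exit sites, had 67.1 and 82.3 TPM with TGFbeta and 63.8 and 54.1 TPM with vehicle (log2 change 0.33, limma adjusted p = 0.275). Of 23 tethers and TRAPP subunits, 16 had a log2 change under 0 and 0 passed the limma test. Their median was -0.19, close to that of all tested genes, and 30.4% were above 0, against 35.2% of all tested genes. The median was -0.08 for the 13 small GTPases and Arf regulators and -0.11 for the 8 genes of the SNARE subset, with 0 calls in each (limma). Trappc6a, a TRAPP subunit gene, had 28.4 and 31.3 TPM with TGFbeta and 41.7 and 62.1 TPM with vehicle (log2 change -0.75, SE 0.21, limma adjusted p = 0.0957).

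**Figure D5:**
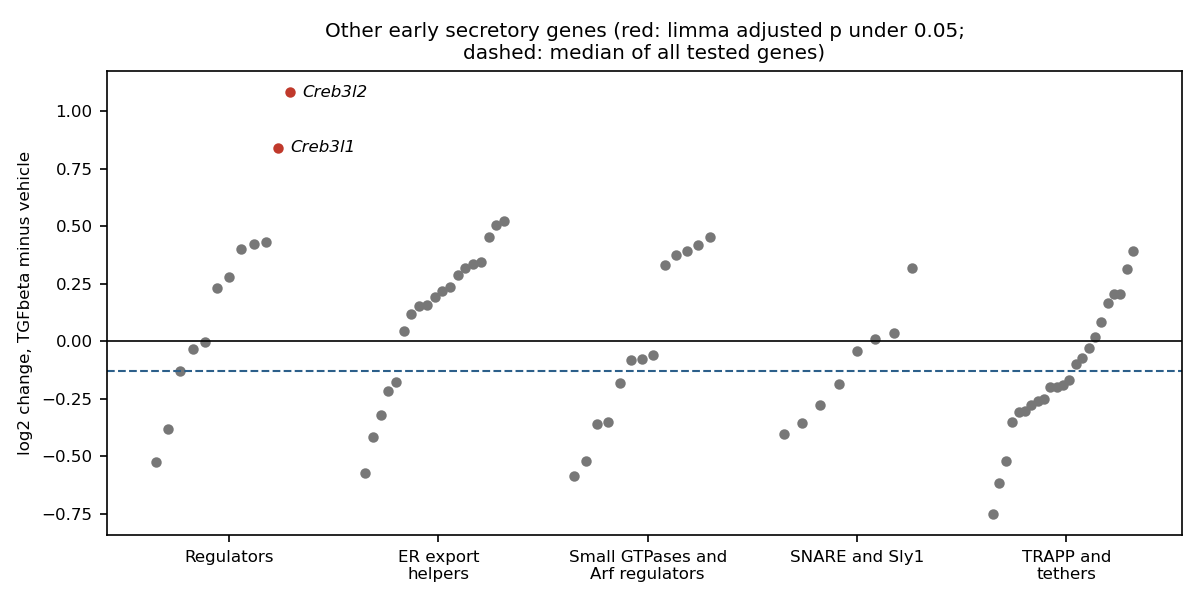
Log2 change (TGFbeta minus vehicle) of 75 other early secretory genes in 5 subsets, 1 point per gene in rising order within a subset. Creb3l2 (1.08) and Creb3l1 (0.84), in red, passed the limma test; the dashed line is the median of all tested genes, -0.13.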

How the data were processed

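RNA of 4 libraries was compared, 2 with TGFbeta and 2 with vehicle. The authors deposited 1 TPM value per gene symbol, per the file headers; the values sum to 1000000 in each library. How reads were aligned and quantified, and on which build, is not given in the sources used here. Gene positions come from GENCODE M21 (GRCm38), matched by symbol.

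Genes with a mean of at least 1 TPM were tested as log2(TPM + 1) with limma 3.58.1 in R 4.3.3 (lmFit, eBayes with an intensity trend, two-sided, treatment as the only term, Benjamini-Hochberg adjustment, threshold 0.05). SE is that of the fit. The fit was tested on simulated data for 15815 genes. It recovered 81% of planted log2 changes of 1 and 100% of those of 2, with 17 false calls. The simulated noise used a spread averaged over genes of similar level. Differences in spread between such genes were thus largely absent, so recovery and false calls may differ in the real data. Changes as small as those of the members were not simulated, so the recovery of such changes is unknown. An exact permutation test has a smallest p of 0.333 here and was not used.

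Members and lists were chosen with earlier results of these data known, so no list was tested. Genes named with values were those called, the 3 largest changes and the most abundant gene per role, the paralogues of called genes and, of the further list, the genes called and the 3 largest changes; the remaining genes given with values were chosen after their values were seen. Of the further list, 75 of 77 symbols were found. The 13 alternatives covered pseudocount, filter, scaling, variance model, replicate block and each library left out. With 1 library left out, its partner is taken to vary as the other treatment does.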

Additional observations from a re-analysis of the deposited data

How the results depend on the processing

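Counts of calls depended on the processing more than the changes themselves. Members called higher (2) became 1 with a pseudocount of 0.1, 4 with a mean TPM of at least 5 (Lman1 and Tmed9 added), 5 after median scaling (Kdelr3 too) and 0 with every gene above 0, without an intensity trend or with the replicate block. They were 0 whichever library was left out (limma; 4 to 10 members at an unadjusted p under 0.05). Members called lower were 0 in all settings run (limma). The members' median of 0.14 was 0.30 after median scaling and 0.07 to 0.18 without 1 library, lowest without vehicle 2. The 936 calls over all genes became 602 without a trend, 0 with every gene above 0 (limma; 4348 at an unadjusted p under 0.05) and 0 to 203 without 1 library (0 without either vehicle library, with 3033 and 2407 at an unadjusted p under 0.05). In the further list, 2 genes called higher became 1 without a trend, 0 with every gene above 0 and 0 to 1 without 1 library, and 2 were called lower with a mean TPM of at least 5. The cause was not tested.

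The labels do not say whether equal replicate numbers share an animal, day or batch. Over all tested genes, deviations of TGFbeta 1 and vehicle 1 from their group means had a correlation of -0.0539. With 2 libraries per treatment this value cannot settle whether the samples were paired. With the replicate block, limma adjusted p was 0.0859 for Kdelr2 and 0.102 for Surf4. The log2 change took the other sign in at least 1 setting for 17 of 56 members, among them Arf2, Mia3, Lman2, Tmed10, Golga2 and Copa. It did so under a scaling for 5 (Arf3, Copg2, Copz2, Golga2 and Tmed8). In the further list 17 of 75 did so, and none of these genes was called. Depth is unknown, and 2 libraries per treatment limit the precision of every value.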
